A study of Saccharomyces cerevisiae with 8 samples.

Results

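The first 30 min after hydroxyurea was washed away were examined in budding yeast (Saccharomyces cerevisiae) of the genotype mec1 by setting the R30 library of that strain against its HU library, feature by feature. These are 2 of the 8 mRNA sequencing libraries of the series, which hold 1 library for each of 2 strains at each of 4 times. The mec1 strain (WFA73) and the wild type (WT, WFA72) were held before S phase by alpha factor, the mating pheromone (group G1), released for 1 h into 200 mM hydroxyurea (HU), then filtered and grown in medium with no drug for 30 min (R30) or 60 min (R60). All HU, R30 and R60 cells of both strains had therefore passed through the pheromone arrest and the drug. The labels give the genotype as mec1 and do not say which allele it is, and they do not say that the cultures of a strain were grown separately from each other.

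Mec1 is the yeast counterpart of the checkpoint kinase ATR. Hydroxyurea blocks ribonucleotide reductase, the enzyme that makes deoxyribonucleotides, and replication forks then slow or stop. In wild-type cells Mec1 answers by activating Rad53, which holds back late origins, protects forks and switches on the ribonucleotide reductase genes through the kinase Dun1. Yeast cells in glucose also tune the citric acid cycle, respiration and amino acid synthesis to the state of the mitochondria and of the nitrogen supply, and several of the genes described below belong to that side of the cell's economy.

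A value is a read count scaled to library depth (RPM, as usually defined) and averaged over several windows on and around a gene, and each feature had between 1 and 12 windows (median 5). A difference is R30 minus HU on the scale log2(RPM + 1), so 1 stands for 2-fold and a positive value means higher at R30. Reads of a neighbouring gene within the windows count towards a feature, so a large change spills onto the genes beside it and is diluted in the gene itself. The RPM scale rests on 2441751 reads in mec1 R30 and 2757721 reads in mec1 HU, within a range of 1596132 to 3935979 over the 8 libraries. With 1 library on each side there is no replicate spread and no test. The 95% intervals given in square brackets are exact intervals of the ratio of 2 counts and cover counting error only. Values are relative to all mRNA in a library, so fewer cells in a state and less RNA per cell cannot be told apart.

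The MEC1 feature had 77.1, 124.1, 83.9 and 76.6 RPM in mec1 (G1, HU, R30, R60) and 36.2, 90.3, 35.7 and 38.7 RPM in WT, and it shares windows with CKS1 and YBR137W, so its level says nothing on the allele. SML1, which encodes an inhibitor of ribonucleotide reductase whose loss keeps cells alive without Mec1, was at 21.3 to 65.5 RPM in the mec1 libraries and at 244.5 to 844.9 RPM in the WT libraries. RNR2, a target of the pathway, was at 310.4 RPM in mec1 HU and at 2069 RPM in WT HU.

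Of 6547 features, 6508 reached a value of 1 RPM in mec1 R30 or mec1 HU and were compared, and 39 did not. YAR066W lay just inside this limit with 1.02 RPM at R30 and 0.272 RPM in HU, and MPH3 lay just outside with 0.956 and 0.604 RPM. The median difference was 0.04, and 9 in 10 features lay between -0.55 and 0.63. A positive difference was found for 3665 of the 6508 features in mec1 and for 3423 of 6486 in WT. The counts of positive genes in the lists below stand against these. At R30, 91 features (1.40%) were 2-fold or more higher than in HU and 70 (1.08%) were 2-fold or more lower. In WT the same comparison gave 99 of 6486 features higher (1.53%) and 224 lower (3.45%). Because neighbours share windows, the 91 features fell into 60 runs of neighbours and the 70 into 45. After reads of neighbours had been separated by a linear model, 76 of the 91 features had a value at both times and 62 of these were still 2-fold higher, while 55 of the 70 had a value and 44 were still 2-fold lower.

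**Figure D1:**
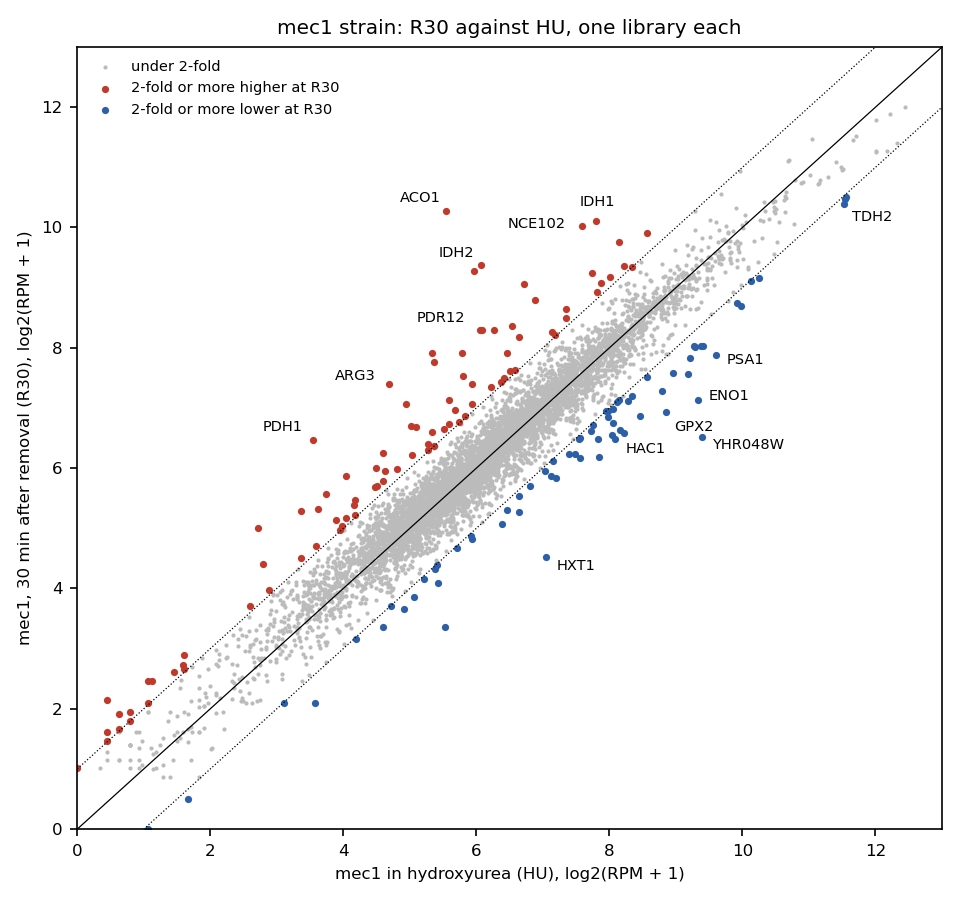
Each point is 1 of 6508 features of the mec1 strain, with its level in hydroxyurea on the x axis and its level 30 min after removal on the y axis, both as log2(RPM + 1), 1 library each. The dotted lines mark 2-fold; 91 features (red) lie on or above the upper line and 70 (blue) on or below the lower one, with ACO1 farthest above the diagonal and YHR048W farthest below.

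The G1 and R60 libraries place these levels in the time course, though choosing features by R30 against HU favours a high R30 or a high HU level, so the counts are a description. Of the 91 features 2-fold higher, 86 were higher at R30 than in G1, 34 were within 2-fold of G1 at R30, and 52 had a G1 level above HU. Of the same 91, 68 were lower at R60 than at R30 and 81 were within 2-fold of their R30 level at R60. Of the 70 features 2-fold lower, 63 had a G1 level below HU, 58 were within 2-fold of G1 at R30, and 70 were within 2-fold of their R30 level at R60. Over all 6508 features compared, 3420 were higher at R30 than in G1, 6017 were within 2-fold of G1 at R30, 3257 had a G1 level below HU and 3251 had one above HU. Of the same 6508, 3205 were lower at R60 than at R30 and 6491 were within 2-fold of their R30 level at R60.

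The largest difference was that of ACO1 (YLR304C, chromosome XII), which encodes aconitase, the second enzyme of the citric acid cycle. Its level was 1241 RPM at R30, against 45.6 RPM in HU, a difference of 4.74 [4.51, 5.03]. In the 4 mec1 libraries ACO1 had 149.5, 45.6, 1241 and 820.3 RPM in G1, HU, R30 and R60, so HU was the lowest of them and R30 the highest. In WT it had 528.5 RPM at R30 and 51.7 RPM in HU, a difference of 3.33. STT4, the gene beside it, was 2-fold higher in the deposited values and was at 164.2 and 90.0 RPM (R30, HU) once neighbours were separated.

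Genes for its neighbours in the cycle were also higher. IDH1 and IDH2 encode the subunits of NAD-dependent isocitrate dehydrogenase. IDH2 had 664.1 RPM at R30 and 65.9 RPM in HU (difference 3.31 [3.11, 3.56]), and YOR135C, a reading frame over it that separates to 0, had the same difference. IDH1 had 1108 RPM at R30 and 222.4 RPM in HU, a difference of 2.31 [2.19, 2.45]. CIT1, the mitochondrial citrate synthase gene, had 166.8 RPM at R30 and 60.0 RPM in HU, a difference of 1.46 [1.21, 1.74]. These 4 were the citric acid cycle genes that reached 2-fold, out of 21. The list had 0 members 2-fold lower, 18 positive differences and a median of 0.54, against 0.04 over all features. MDH1, the mitochondrial malate dehydrogenase gene, named after its value was seen, had the lowest difference of the list in mec1 at -0.37. In WT 3 of the 21 were 2-fold higher, 2 were lower and 14 were positive, with a median of 0.06. IDH2, IDH1 and CIT1 differed by 2.32, 1.78 and 0.69 in WT.

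ACO1, IDH1, IDH2 and CIT1 also belong to the retrograde response, in which the factors Rtg1 and Rtg3, released by Rtg2, raise genes of the early citric acid cycle when mitochondrial function falls or glutamate is short. Of the 12 listed genes of this response, 6 were 2-fold or more higher at R30 in mec1 and 0 lower, with a median of 1.09. In WT 4 of the 12 were 2-fold higher and 1 was lower, with a median of 0.29. Of the 6 in mec1, 4 are the cycle genes above. PDH1, whose product acts in mitochondrial propionate use, had 88.0 RPM at R30 and 10.7 RPM in HU, a difference of 2.93 [2.50, 3.68] that was 2.09 in WT. DLD3, a cytosolic lactate dehydrogenase gene named after its value was seen, had 604.9 RPM at R30 and 213.1 RPM in HU, a difference of 1.50 [1.37, 1.64], where WT had 313.9 and 314.9 RPM and a difference of -0.005. CIT2, the peroxisomal citrate synthase gene that usually serves as the reporter of this response, also named after its value was seen, stayed below 2-fold with 148.8 RPM at R30 and 90.1 RPM in HU (0.72 in mec1, -1.12 in WT). Of the regulators, RTG1 differed by 0.15, RTG3 by 0.03 and the inhibitor gene MKS1 by -0.07. RTG2 had 140.1 RPM at R30 and 255.0 RPM in HU, a difference of -0.86, which was -0.09 with neighbours separated.

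The promoters of ACO1 and DLD3 show the boxes searched for around these genes in R64, the RefSeq assembly of this yeast. The window was the 300 bases from 350 to 51 before the start codon, read 5' to 3' on the gene's strand, and both strands were searched. ACO1 (chrXII:737599-737898, minus strand) holds 2 copies of CCAAT, the core bound by the Hap complex of which Hap4 is the activator, and no GTCAC, the core bound by Rtg1 and Rtg3. DLD3 (chrV:16005-16304, plus strand) holds 2 copies of GTCAC, 1 on each strand, and no CCAAT. Of the 6 retrograde genes that were 2-fold higher, DLD3 was the 1 with GTCAC in this window, and ACO1, IDH1, IDH2, PDH1 and CIT1 had 0 matches. Capitals mark the box on either strand.
ACO1: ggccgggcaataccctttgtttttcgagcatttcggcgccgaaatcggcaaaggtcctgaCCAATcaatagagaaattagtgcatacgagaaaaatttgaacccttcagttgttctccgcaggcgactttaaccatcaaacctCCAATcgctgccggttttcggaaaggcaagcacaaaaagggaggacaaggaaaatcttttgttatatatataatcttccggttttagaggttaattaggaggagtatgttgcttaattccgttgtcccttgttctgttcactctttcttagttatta
DLD3: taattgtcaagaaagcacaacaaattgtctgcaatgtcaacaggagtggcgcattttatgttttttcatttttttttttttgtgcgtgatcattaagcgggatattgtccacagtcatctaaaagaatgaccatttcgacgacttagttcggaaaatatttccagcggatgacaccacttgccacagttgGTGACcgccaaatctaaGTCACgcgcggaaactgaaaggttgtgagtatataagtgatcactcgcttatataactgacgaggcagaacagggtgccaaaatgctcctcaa
CCAAT was in 9 of the 12 retrograde promoters (75%) and in 42 of 81 promoters of features 2-fold higher at R30 (51.9%), against 42.9% of all 6001 promoters read. GTCAC was in 5 of 12 (41.7%) and 31 of 81 (38.3%), against 27.5% of all. Other boxes were searched in the 81 promoters too. ACGCGT (MCB) was in 8 (9.88%) against 3.72% of all, and AGGGG (STRE) was in 22 (27.2%) against 22.9%. CAGCGTG (Hac1) was in 1 (1.23%) against 1.27%, and TTACTAA (Yap1) was in 4 (4.94%) against 7.27%. TGACTC is described below. Such a match describes the letters in this window and no more. The promoter sets of 2-fold features, here and below, use deposited values, so genes that share windows with a changed neighbour count in them.

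NDE1, the external NADH dehydrogenase of mitochondria, had 311.8 RPM at R30 and 75.6 RPM in HU, a difference of 2.03 [1.82, 2.27]. HAP4, which encodes the activating subunit of the Hap complex, had 75.4 RPM at R30 and 23.2 RPM in HU, a difference of 1.66 [1.28, 2.13]. QCR7 and CYT1, subunits of the cytochrome bc1 complex, differed by 1.05 and 1.03. These 4 were 2-fold higher of 35 respiratory chain and ATP synthase genes, 0 were lower, and 30 differences were positive with a median of 0.31. In WT the median was 0.54 with 2 genes 2-fold higher, and the mec1 difference was above the WT difference in 13 of the 35. As a background for such counts, here and below, the mec1 difference minus the WT difference had a median of 0.003. That median is over 6312 features with 10 RPM or more at R30 or HU in either strain. Neighbour separation left NDE1 at 0 in HU, so no fold is given for it on that basis.

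**Figure D2:**
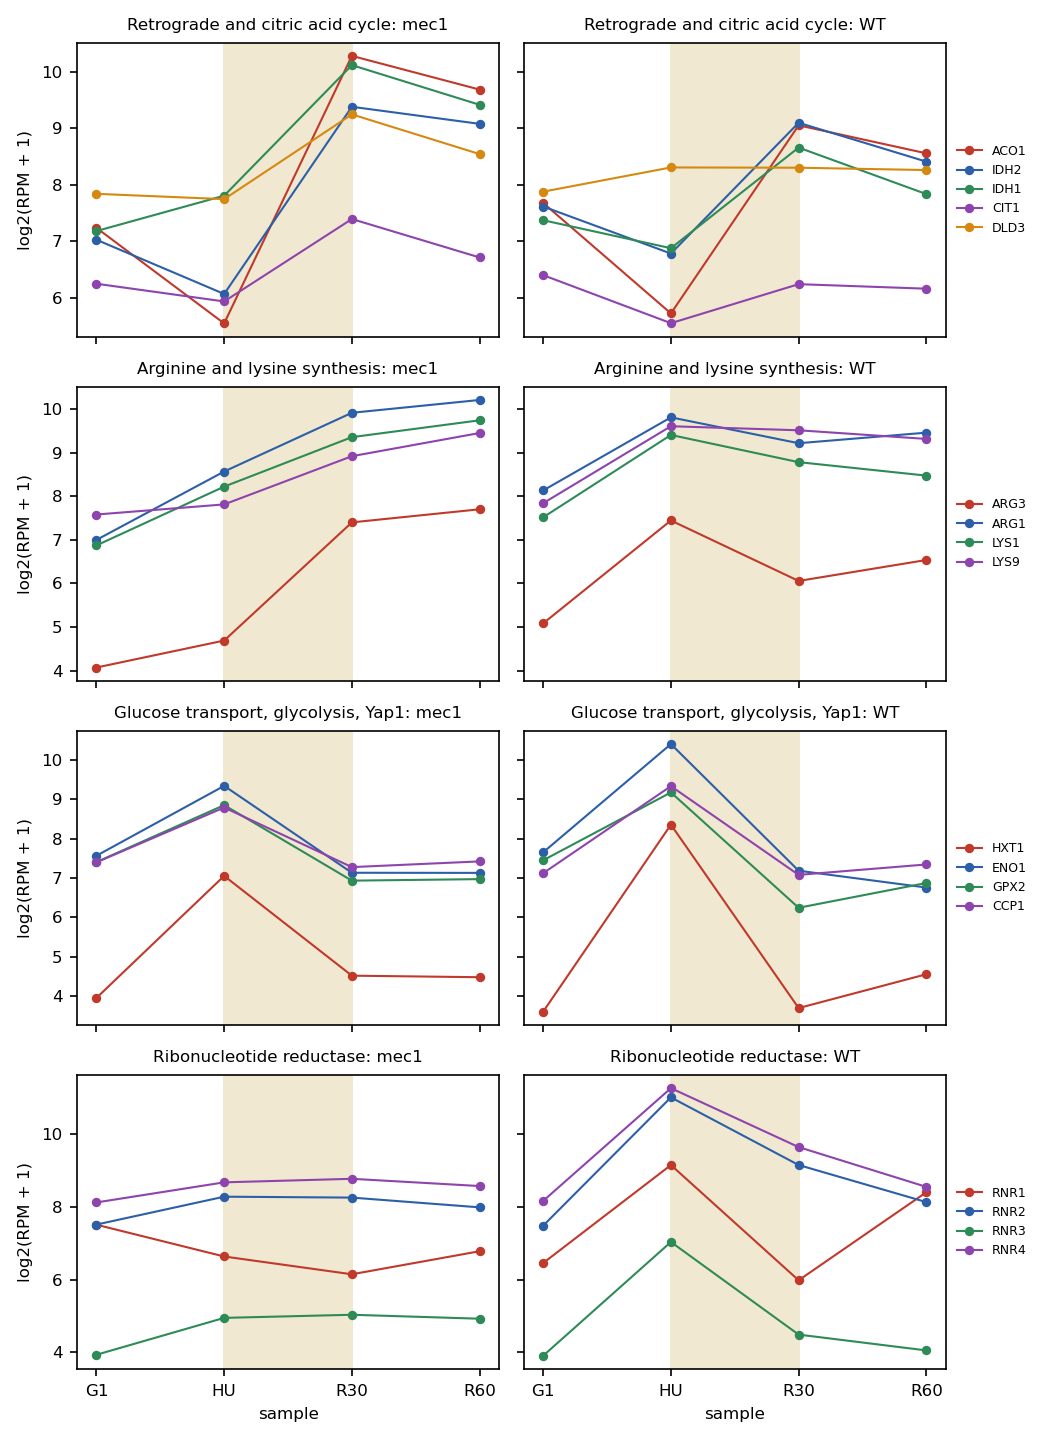
Levels on the log2(RPM + 1) scale at G1, HU, R30 and R60 for 4 groups of genes, mec1 on the left and WT on the right, 1 library per point; the shaded interval is HU to R30. In mec1, ACO1 has 1241 RPM at R30 and 45.6 RPM in HU, ARG3 is higher at R30 than in HU where in WT it is lower, HXT1 is at 21.9 RPM at R30 and was at 14.5 RPM in G1, and RNR2, RNR3 and RNR4 differ by 0.10 or less between HU and R30.

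A few amino acid synthesis genes were 2-fold higher at R30 in mec1 and not in WT, with the difference between strains untested. ARG3, which encodes ornithine transcarbamylase of the arginine pathway, had 168.1 RPM at R30 and 24.8 RPM in HU in mec1, a difference of 2.71 [2.39, 3.16]. In WT it had 65.6 RPM at R30 and 173.3 RPM in HU, a difference of -1.39 [-1.73, -1.09]. The WT level in HU was thus close to the mec1 level at R30, and the mec1 level in HU was the low one. ARG1, argininosuccinate synthetase, had 965.4 RPM at R30 and 378.8 RPM in HU in mec1 (1.35 [1.24, 1.46]), against 594.7 and 897.8 RPM in WT (-0.59). LYS1 and LYS9, the last steps of lysine synthesis, differed by 1.14 and 1.11 in mec1 and by -0.62 and -0.09 in WT. LYS21, a homocitrate synthase gene named after its value was seen, completed the 2-fold genes with 1.08. Of 44 listed genes, 5 were 2-fold higher, 0 were lower and 34 were positive, with a median of 0.31. In WT the median was -0.29 with 8 positive, and the mec1 difference exceeded the WT difference in 40 of the 44. ILV6, the regulatory subunit of acetolactate synthase, named after its value was seen, was the lowest of the list in mec1 with -0.53, and had -0.53 in WT as well.

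The levels of ARG3, ARG1 and LYS1 in mec1 were higher still at R60. ARG3 had 15.8, 24.8, 168.1 and 207.2 RPM in G1, HU, R30 and R60 of mec1, and 32.9, 173.3, 65.6 and 91.9 RPM in WT. ARG1 had 126.9, 378.8, 965.4 and 1184 RPM in mec1. LYS1 had 116.2, 297.6, 655.0 and 856.5 RPM in mec1. On the side of arginine breakdown, CAR1, which encodes arginase, had 74.5 RPM at R30 and 167.0 RPM in HU, a difference of -1.15 [-1.42, -0.91], and -0.36 in WT. CAR1 comes from a list of 13 arginine genes chosen after values were seen, of which 2 were 2-fold higher and 1 lower, with a median of 0.03.

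Gcn4, the activator of amino acid synthesis genes, binds TGACTC. The letters were in 34 of 44 promoters of the amino acid list (77.3%) and in 13 of the 81 of features 2-fold higher at R30 (16%), against 8.07% of all. TGACTC and GTCAC matches overlapped in 93 of the 6001 promoters. The promoters of 3 of the 2-fold genes are shown with the box in capitals on either strand: ARG3 (chrX:268449-268748, plus) has 1 match, ARG1 (chrXV:218861-219160, plus) has 2 and LYS1 (chrIX:420787-421086, minus) has 2. LYS9, LYS21 and CAR1 hold 0 matches in this window and ILV6 holds 1.
ARG3: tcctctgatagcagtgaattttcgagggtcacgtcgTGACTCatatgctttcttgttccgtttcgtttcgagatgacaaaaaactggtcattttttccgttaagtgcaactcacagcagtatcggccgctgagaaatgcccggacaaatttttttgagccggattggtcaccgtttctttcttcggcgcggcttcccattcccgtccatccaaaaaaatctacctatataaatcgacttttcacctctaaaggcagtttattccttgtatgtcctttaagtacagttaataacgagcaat
ARG1: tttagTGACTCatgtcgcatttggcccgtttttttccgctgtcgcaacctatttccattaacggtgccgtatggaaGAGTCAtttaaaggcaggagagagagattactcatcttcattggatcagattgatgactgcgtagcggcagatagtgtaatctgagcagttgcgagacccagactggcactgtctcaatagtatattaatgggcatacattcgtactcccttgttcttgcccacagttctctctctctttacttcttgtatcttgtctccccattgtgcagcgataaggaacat
LYS1: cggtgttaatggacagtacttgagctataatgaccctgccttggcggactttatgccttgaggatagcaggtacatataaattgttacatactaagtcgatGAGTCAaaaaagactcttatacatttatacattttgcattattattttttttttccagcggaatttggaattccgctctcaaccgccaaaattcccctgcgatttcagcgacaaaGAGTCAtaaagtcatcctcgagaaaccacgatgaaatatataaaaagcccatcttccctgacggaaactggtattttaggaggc

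Other transport and catabolic genes among the 15 largest increases fit no list above. NCE102, which encodes a membrane protein of eisosomes, had 1046 RPM at R30 and 191.9 RPM in HU (2.44 [2.31, 2.58]; 1.82 in WT). PDR12, an exporter of weak organic acids, had 313.5 RPM at R30 and 65.2 RPM in HU, a difference of 2.25 [2.03, 2.51], while WT had 112.4 and 111.8 RPM and a difference of 0.01. DIP5, the permease for glutamate and aspartate, had 241.1 RPM at R30 and 54.2 RPM in HU (2.13 [1.90, 2.43]; 0.37 in WT). CHA1, the serine and threonine deaminase of amino acid breakdown, had 132.3 RPM at R30 and 29.7 RPM in HU (2.12 [1.80, 2.52]; 0.61 in WT). PCA1, a P-type ATPase that exports cadmium, differed by 1.82 in mec1 and 0.32 in WT, and lies beside the phosphate transporter gene PHO89, which differed by 1.71 and 1.04. YBR147W, listed as RTC2 in R64, a vacuolar membrane protein, had 102.5 RPM at R30 and 31.3 RPM in HU in mec1, a difference of 1.68 [1.36, 2.09], and -0.86 in WT. YER053C-A, a short reading frame, differed by 2.29 on low levels of 31.1 and 5.56 RPM.

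**Figure D3:**
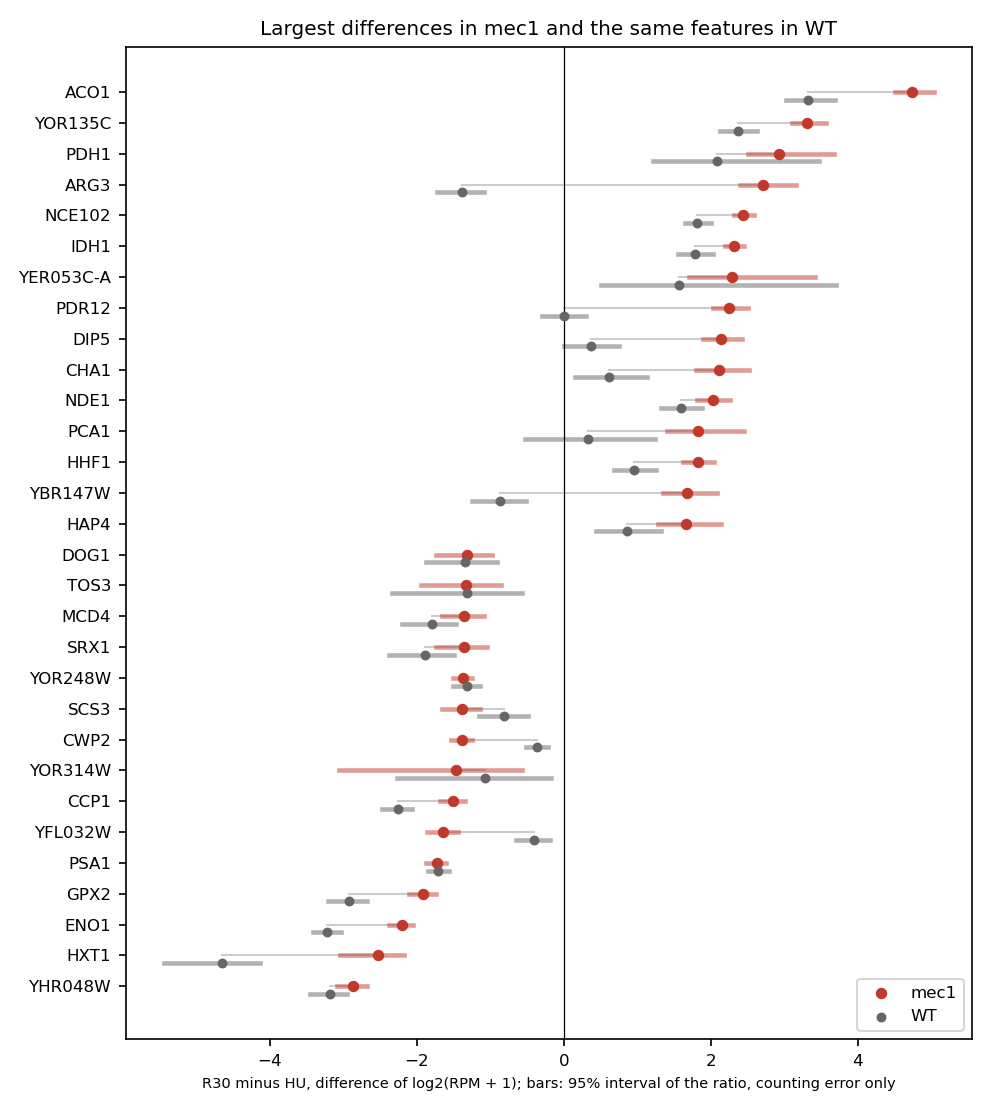
Differences R30 minus HU on the log2(RPM + 1) scale for the 15 largest increases and 15 largest decreases in mec1 (red) and for the same features in WT (grey); thick bars are 95% intervals of the ratio for counting error only. ARG3 and YBR147W lie on opposite sides of 0 in the 2 strains, PDR12 is at 0.01 in WT, and HXT1, ENO1 and GPX2 lie farther below 0 in WT than in mec1.

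Genes of glucose uptake and glycolysis were among the largest decreases. HXT1, the low-affinity glucose transporter induced by high glucose, had 21.9 RPM at R30 and 131.7 RPM in HU, a difference of -2.53 [-3.04, -2.18]. In WT it had 11.9 RPM at R30 and 326.1 RPM in HU, a difference of -4.66. HXT3, a low-affinity transporter, had 414.5 RPM at R30 and 1010.2 RPM in HU (-1.28 in mec1, -0.74 in WT), and HXT2, a high-affinity one, had 429.2 and 971.1 RPM (-1.18 in mec1, -0.37 in WT). Of 13 hexose transporter genes 3 were 2-fold lower, 0 were higher, and the median was -0.22. These genes share long stretches of sequence, so reads may have been divided among them.

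ENO1, an enolase gene, had 139.2 RPM at R30 and 646.6 RPM in HU, a difference of -2.21 [-2.39, -2.05], and -3.22 in WT. HXK2, the main glucose kinase gene, had 259.6 RPM at R30 and 615.0 RPM in HU (-1.24 in mec1, -0.42 in WT). TDH2, a glyceraldehyde-3-phosphate dehydrogenase gene, and TPI1, triose phosphate isomerase, differed by -1.14 and -1.06 at levels of 1337 and 1446 RPM at R30. Of 19 genes of glycolysis and fermentation 4 were 2-fold lower and 0 higher, 2 differences were positive, and the median was -0.45 in mec1 and -0.42 in WT. TOS3, a kinase that activates the glucose-sensing kinase Snf1, and DOG1, a sugar phosphatase gene, differed by -1.34 and -1.31.

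Several peroxide defence genes of the list of Yap1 targets were 2-fold lower at R30. GPX2, a peroxidase gene, had 121.1 RPM at R30 and 460.4 RPM in HU, a difference of -1.92 [-2.11, -1.74], and -2.93 in WT. CCP1, mitochondrial cytochrome c peroxidase, had 153.9 RPM at R30 and 441.3 RPM in HU (-1.51 [-1.69, -1.35]; -2.25 in WT). SRX1, sulfiredoxin, had 37.7 RPM at R30 and 98.6 RPM in HU (-1.36 [-1.75, -1.04]; -1.89 in WT), and TRR1, thioredoxin reductase, had 257.1 and 624.5 RPM (-1.28; -1.66 in WT). Of 20 listed genes 6 were 2-fold lower and 0 higher in mec1, with a median of -0.66. In WT 13 were 2-fold lower with a median of -1.19, and the mec1 difference was above the WT difference, that is less negative or positive, in 19 of the 20. At R30 GPX2 was below its G1 level of 168.2 RPM, CCP1 below 167.6 RPM and SRX1 below 45.7 RPM in mec1.

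TTACTAA, the box bound by Yap1, was in 10 of the 20 promoters of this list (50%) and in 5 of 62 promoters of features 2-fold lower at R30 (8.06%), against 7.27% of all. GPX2 (chrII:707178-707477, plus) and SRX1 (chrXI:277931-278230, plus) hold 1 match each, shown in capitals on either strand, and CCP1 and TRR1 hold 0.
GPX2: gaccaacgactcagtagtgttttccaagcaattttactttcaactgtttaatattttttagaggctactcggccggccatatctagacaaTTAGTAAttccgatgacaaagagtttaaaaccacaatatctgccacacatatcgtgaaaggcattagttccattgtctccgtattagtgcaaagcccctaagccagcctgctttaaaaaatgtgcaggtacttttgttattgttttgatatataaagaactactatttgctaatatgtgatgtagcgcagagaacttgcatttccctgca
SRX1: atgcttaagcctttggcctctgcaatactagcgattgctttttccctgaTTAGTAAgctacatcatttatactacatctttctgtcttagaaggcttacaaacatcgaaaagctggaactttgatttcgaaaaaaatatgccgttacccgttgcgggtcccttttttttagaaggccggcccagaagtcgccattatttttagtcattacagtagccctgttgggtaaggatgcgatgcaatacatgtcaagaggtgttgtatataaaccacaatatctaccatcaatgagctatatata

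The largest decrease was that of YHR048W, listed as YHK8 in R64, a presumed drug transporter gene. It had 90.8 RPM at R30 and 671.1 RPM in HU, a difference of -2.87 [-3.09, -2.68], and -3.18 in WT. FSH1, the gene beside it, was at 270.3 and 760.3 RPM (R30, HU) with neighbours separated. YOR314W differed by -1.47 on levels of 3.28 and 10.9 RPM, with an interval of -3.07 to -0.57.

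The lists of mannosylation and anchor genes and of protein folding in the endoplasmic reticulum were chosen after values were seen and are a description. PSA1, which makes GDP-mannose, had 233.6 RPM at R30 and 777.2 RPM in HU, a difference of -1.73 [-1.87, -1.60], and -1.71 in WT. MCD4, a glycosylphosphatidylinositol anchor enzyme, differed by -1.36, PMT2, a protein mannosyltransferase, by -1.16 and SEC53, phosphomannomutase, by -1.09. Of 47 genes for mannose donors, mannosylation and anchors 7 were 2-fold lower and 0 higher, with a median of -0.13 in mec1 and -0.16 in WT. CWP2, a mannoprotein of the cell wall, had 225.5 RPM at R30 and 593.1 RPM in HU (-1.39 [-1.54, -1.25]), and -0.36 in WT. SRL1, a mannoprotein gene overlapped by YOR248W, differed by -1.35 in mec1 and -1.34 in WT.

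Cell wall genes differed in both directions. Of 32 listed genes 4 were 2-fold higher and 2 lower in mec1, with a median of 0.01. In WT 4 were higher and 4 lower, with a median of -0.14. PIR1, a glycosylated wall protein, had 102.2 RPM at R30 and 33.1 RPM in HU in mec1 (1.60, and 0.50 in WT). HSP150, CWP1 and TIP1 differed by 1.16, 1.14 and 1.11 in mec1 and by 1.32, 0.33 and 1.12 in WT. CWP2 and TIR1 were lower, by -1.39 and -1.04 in mec1 and by -0.36 and -0.99 in WT.

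HAC1 encodes the activator of the unfolded protein response. It had 88.6 RPM at R30 and 270.3 RPM in HU in mec1, a difference of -1.60 [-1.84, -1.39], against 146.0 and 200.2 RPM and -0.45 in WT. YFL032W, which overlaps it, differed by -1.64. SCS3, a membrane protein gene of lipid droplet formation, had 70.8 RPM at R30 and 186.9 RPM in HU (-1.39; -0.82 in WT). MPD1, a disulphide isomerase, differed by -1.16 and SEC62, a subunit of the translocon, by -0.96. Of 24 genes for folding and the unfolded protein response 3 were 2-fold lower, 0 higher and 4 positive, with a median of -0.65 in mec1 and -0.50 in WT. KAR2, the chaperone of this compartment, named after its value was seen, had 486.1 RPM at R30 and 928.3 RPM in HU (-0.93; -1.28 in WT).

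**Figure D4:**
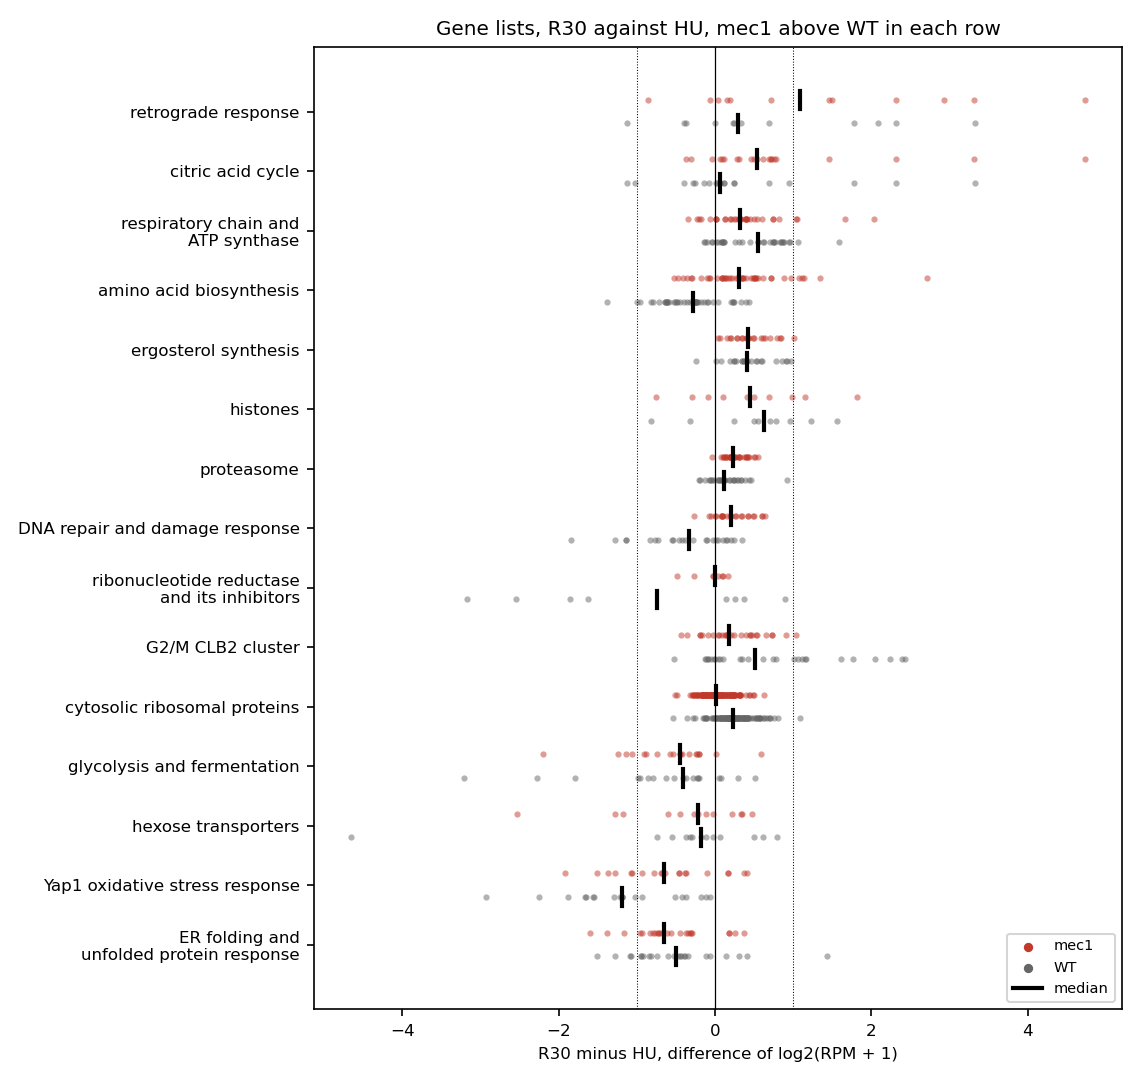
Each point is a gene of the list named on the left, placed by its difference R30 minus HU on the log2(RPM + 1) scale, mec1 in red above WT in grey, with a black bar at the median and dotted lines at 2-fold. The retrograde list has medians of 1.09 (mec1) and 0.29 (WT), the amino acid list 0.31 and -0.29, the Yap1 list -0.66 and -1.19, and the ribonucleotide reductase list 0.00 and -0.74.

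The ribonucleotide reductase genes RNR1 to RNR4, a known output of Mec1 signalling, had lower levels in mec1 HU than in WT HU, and none was 2-fold different at R30 in mec1. RNR3, the damage-induced large subunit, had 31.7 RPM at R30 and 29.9 RPM in HU in mec1 (0.09 [-0.36, 0.57]), against 21.4 and 130.2 RPM in WT (-2.55). RNR2 and RNR4, the small subunit genes, differed by -0.03 and 0.10 in mec1 and by -1.86 and -1.62 in WT. RNR1, the main large subunit, had 69.9 RPM at R30 and 98.5 RPM in HU in mec1 (-0.49 [-0.78, -0.21]), against 62.2 and 568.4 RPM in WT (-3.17). HUG1, an inhibitor gene, had 38.6 RPM at R30 and 37.7 RPM in HU in mec1 (0.03), against 490.8 and 444.7 RPM in WT (0.14), and it shares windows with SML1, which differed by 0.17 in mec1 and 0.90 in WT. With neighbours separated HUG1 differed by -0.06 in mec1 and by -0.61 in WT. YLR437C (DIF1), an inhibitor, and RFX1, a repressor of these genes, differed by -0.27 and -0.03. Of the 8 genes 0 were 2-fold changed in mec1, and 4 were 2-fold lower in WT.

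Most DNA repair and damage genes had small positive differences in mec1. Of 24 listed genes 21 were positive, where 3665 of all 6508 features were. Of the 24, 0 were 2-fold changed and the median was 0.20, with PHR1 (photolyase) at 0.64 and TOF1 and MRC1 (fork protection) both at 0.60. In WT 8 were positive, 4 were 2-fold lower and the median was -0.33.

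Of 28 genes of the G2/M cluster driven by Fkh2 and Ndd1, 1 was 2-fold higher in mec1 and 11 were in WT, with medians of 0.18 and 0.51. SPO12, a regulator of mitotic exit, had 115.9 RPM at R30 and 55.8 RPM in HU in mec1 (1.04), against 113.2 and 20.8 RPM in WT (2.39), so the R30 levels were close and the HU levels were not. KIN3 and CDC5, mitotic kinase genes, and SWI5, an activator of late mitosis, differed by 0.91, 0.73 and 0.73 in mec1 and by 2.24, 2.04 and 1.61 in WT. Of 33 G1/S genes 1 was 2-fold higher, 1 lower and 12 positive in mec1 (median -0.04), while 0 were higher, 6 lower and 3 positive in WT (median -0.49). CDC21, thymidylate synthase, had 36.4 RPM at R30 and 17.0 RPM in HU in mec1 (1.05 [0.57, 1.64]), against 13.1 and 37.4 RPM in WT (-1.45). SRL1, YOX1 (a repressor of early G1 genes) and GAS1 (a glucan-modifying enzyme) differed by -1.35, -0.82 and -0.75 in mec1.

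Among 10 histone genes 2 were 2-fold higher in mec1, 7 were positive and the median was 0.45. HHF1, a histone H4 gene, had 326.7 RPM at R30 and 91.8 RPM in HU, a difference of 1.82 [1.63, 2.04], and 0.96 in WT. The H3 gene HHT2 differed by 1.15, its H4 partner HHF2 by 0.98 and HHT1 by 0.69. Of the H2A and H2B genes in mec1, HTA2 differed by 0.50, HTB2 by 0.41, HTB1 by 0.10 and HTA1 by -0.09; in WT they differed by 1.56, 1.23, 0.70 and 0.78. With neighbours separated the mec1 difference of HTA1 was 0.59, of the other sign, and that of HHT1 was 2.09. The variant gene HTZ1 and the linker gene HHO1 differed by -0.75 and -0.30. Copies of each histone gene are similar in sequence. These values may depend on how shared reads were placed and on mRNA selection.

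In the ergosterol and proteasome lists nearly every difference was positive and small. All 23 ergosterol genes were positive with a median of 0.42 (0.41 in WT), among them ERG13 (HMG-CoA synthase, 1.00), ERG6 (0.84), ERG5 (0.83) and HMG1 (HMG-CoA reductase, 0.79). Of 33 proteasome genes 32 were positive with a median of 0.23 (0.11 in WT), and RPN12 was highest with 0.55. Of 137 cytosolic ribosomal protein genes 72 were positive with a median of 0.02 in mec1, where WT had 123 positive and a median of 0.23. Ribosome biogenesis genes had medians of 0.05 in mec1 and 0.26 in WT over 55 genes. Of 24 chaperone genes 2 were 2-fold higher in mec1, BTN2 (1.54), a protein sorting factor, and HSP82 (1.14), the inducible Hsp90, and the list median was 0.06. None of 27 general stress genes of Msn2 and Msn4 reached 2-fold in mec1, with a median of 0.04.

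The remaining lists had medians between -0.13 and 0.25, against 0.04 over all features. Of 16 phosphate genes 2 were 2-fold higher, PHO89 (1.71) and the acid phosphatase gene PHO11 (1.70), with a median of 0.17, and PHO84, the main phosphate transporter gene, had 312.7 RPM at R30 and 172.8 RPM in HU in mec1 (0.85; -1.47 in WT). PHO11 had 3.41 RPM at R30 and 0.363 RPM in HU and shares sequence with near-identical copies, so its value is uncertain. Of 28 genes of M/G1 and daughter separation 2 were 2-fold higher, PIR1 and HSP150, with a median of 0.19. Of 17 thiamine and vitamin B6 genes 2 were 2-fold higher, the neighbours SNZ1 (1.18) and SNO1 (1.03), and the median was -0.13. NCE102 was the 2-fold gene among 15 of the plasma membrane and eisosomes (median 0.23). The purine genes (17, median 0.25), iron genes (28, -0.01), sulphur genes (26, -0.05), pheromone genes (27, 0.04), mitochondrial ribosomal protein genes (65, 0.01) and genes of the glyoxylate cycle and gluconeogenesis (16, 0.02) had 0 members 2-fold different in mec1. Of 38 Ty reading frames, repeated sequences listed after values were seen, 1 was 2-fold higher and 3 were lower, with a median of -0.11.

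The 2-fold features of the strains overlapped in part, and the strain difference itself has no replicate and was not tested. Of the 91 features 2-fold higher in mec1, 24 were also 2-fold higher in WT, which is 26.4% of the mec1 set and 24.2% of the 99 in WT. Over all 6486 features compared in WT, 1.53% were 2-fold higher. Of the 91, 62 were positive in WT, where 52.8% of all 6508 features were, and 4 were 2-fold lower there: ARG3 and its neighbour SIP4, and CDC21 and YOR073W-A beside it. SIP4 and YOR073W-A were named after their values were seen. Of the 70 features 2-fold lower in mec1, 36 were also 2-fold lower in WT, 51.4% of the mec1 set and 16.1% of the 224 in WT. Over all 6486 features compared in WT, 3.45% were 2-fold lower. Of the same 70, 68 were negative in WT, where 47.2% of all 6508 features were. Over 6312 features with 10 RPM or more in one of the 4 libraries, the mec1 difference exceeded the WT difference by 1 or more for 222 and fell short of it by 1 or more for 80, with a median of 0.003.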

How the data were processed

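The 8 mRNA libraries cover 2 strains at 4 times. Hot phenol RNA and Illumina TruSeq Stranded mRNA libraries were used, per the labels' protocols, and BWA and sacCer3 were named, with no version, per the submitters' processing notes. The deposited table calls its values log2 RPKM, per the file headers, but they are linear RPM: multiplied by a feature's windows, each value comes to whole reads, with a largest deviation of 0.00599 read. Windows were inferred as each gene's body and flanks of 1000 bp, with overlapping windows of neighbours, which gives the deposited number of windows for 6303 of 6547 features (96.3%). The deposited SD is over windows and is no replicate error. A step of 1 read gives the depth, and a typical feature (median) had 161.4 reads a window in mec1 R30 and 179.2 in mec1 HU. Strand use in counting is not given in the sources used here, so overlapping and antisense features cannot be told apart. No count test was run, as there is 1 library per strain and time.

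Differences are R30 minus HU of log2(value + 1), for features with 1 RPM or more in one of the 2 columns, and 2-fold is a difference of 1. Intervals (95%, exact) take mean reads per window as counts; reads without molecular identifiers are not independent molecules, so they cover counting error only. The neighbour separation is a non-negative least squares fit per chromosome of gene bodies extended by 100 bp, a length chosen after seeing the fit, and its predicted SD over windows correlated with the deposited SD with r from 0.962 to 0.968 across features.

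Features named were the 15 largest increases and 15 largest decreases with 10 RPM or more in one library, leaving out those within 2000 bp of one taken, and in each list up to 4 members in the direction of its median and up to 2 in the other if 2-fold, or the whole family if 10 or fewer. The members, the 29 lists and the rule were chosen with earlier results of these data known, and 4 further lists were chosen after values were seen. Promoters come from R64 (RefSeq) by gene name. Of 5905 features matched to R64 by name, 990 (16.8%) had the same start, so no coordinates of the table are given. Python 3.11.15, numpy 2.4.6, pandas 2.3.3, scipy 1.17.1 and matplotlib 3.10.9 were used.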

Additional observations from a re-analysis of the deposited data

Results flagged for a closer look

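Features 2-fold or more changed in opposite directions in the strains drew attention; each strain has 1 library per time and the difference was not tested. ARG3 was 2-fold higher at R30 in mec1 and 2-fold lower in WT, and the mec1 difference exceeded the WT difference by 4.10 on the log2 scale. For CDC21 the excess was 2.50, on levels of 36.4 and 17.0 RPM (R30, HU) in mec1 and 13.1 and 37.4 RPM in WT. The Ty reading frame YML045W-A, named after its value was seen, gave -2.24, on 0.41 and 2.18 RPM (R30, HU) in mec1 and 1.10 and 0 RPM in WT, which rests on very few reads, with an interval in mec1 of -7.93 to 0.63.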

How the results depend on the processing

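No paired analysis was possible because each strain and time has 1 library and no test was made. Separating reads of neighbours moved the counts the most of the alternatives run: it gave 276 features 2-fold higher and 193 lower in mec1 (91 and 70 as deposited), and 284 higher and 461 lower in WT (99 and 224 as deposited). The separation set 837 features to 0 in mec1 R30 and 838 in mec1 HU, which makes some differences large, and the cause of the higher counts was not tested. Under the other alternatives (a pseudocount of 0.25 or 5, centring on the median, quantile normalization, no filter, or a minimum of 20 RPM) the mec1 counts lay between 63 and 110 higher and between 54 and 89 lower, and those of WT between 78 and 123 higher and between 156 and 249 lower. Quantile normalization moved the median of all mec1 features by -0.04. Of 154 named features, 154 stayed within their counting interval under either pseudocount and centring and 150 under quantile normalization. With neighbours separated 113 stayed within it, 32 left it and 9 had no value, and 0 of the 2-fold values among these 154 changed sign. Some 2-fold features outside the 154 did change sign. GPI15 went from 1.92 to -2.72 and TRL1 from 1.34 to -1.64, both named after their values were seen. No library could be left out, since each strain and time has 1; the spread between cultures of a strain was not measured, and depth limits the features with few reads, as their wide intervals show.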
